A study of Mus musculus with 18 samples.

Results

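Kinesins are motor proteins that move along microtubules, and their genes were taken as every gene in the table of normalised expression whose symbol starts with Kif or Kifc followed by a digit. This rule gave 44 of the 28252 genes with a TPM value (a level scaled for gene length and library total). Of the 44 members, 40 are kinesin genes. The other 4 enter by their symbol only: Kif1bp encodes a kinesin binding protein without a motor, Kifc5c-ps and Kif4-ps are pseudogenes, and Kif16bos is a transcript beside Kif16b on the opposite strand. All 44 were found in the count table and in GENCODE M21 (GRCm38) by their Ensembl identifier. Kif12 and Kif2b had 0 counts in every library and no TPM value, so they are not members.

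As background, kinesins use ATP to step along microtubules with a cargo, to slide microtubules against each other or to take their ends apart. Dividing cells need them to build the spindle, to move chromosomes and to form the midzone between the separating chromosomes, while other members carry vesicles and mitochondria or serve the cilium. Oocytes build their meiotic spindle without centrosomes and then split off a small polar body, so spindle and midzone kinesins are studied there for both steps.

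RNA was sequenced in bulk from oocytes of primordial follicles, oocytes of primary follicles and oocytes in metaphase of the second meiotic division (MII), with 3 libraries for each stage from sham mice and 3 from mice of a treatment labelled NTY, a name that the sources used here do not explain. All 18 libraries came from in vivo material of C57Bl/6j x CBA/J mice, and the age of the animals is not given in the sources used here. By the labelled protocol, laser-captured cells were pooled by stage, amplified and enriched by capture of coding RNA, and collected oocytes were made into libraries by Smart-seq II. The 12 libraries of primordial and primary follicles were taken as the captured ones and the 6 MII libraries as the collected ones, and a difference in stage between both sets is also a difference in how the libraries were made. The labels do not say that replicates came from separate animals, so p-values measure only the spread between these samples, which may be technical.

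The total count per library was 15149564, 29205503 and 21086068 in primordial sham, 22679770, 23532501 and 27012288 in primordial NTY, 23930436, 22572216 and 23410138 in primary sham and 23698083, 23268600 and 25286457 in primary NTY. In MII oocytes it was 9578956, 9978830 and 8898672 for sham and 8733307, 9337884 and 8652089 for NTY. The MII libraries were therefore the shallower ones, and a floor of 3 counts corresponded to 0.103 to 0.198 CPM (counts scaled to the library total) in the 12 microdissected libraries and to 0.301 to 0.347 in the 6 MII libraries. Floors and counting intervals cover counting error only, because reads without molecular identifiers are not independent molecules.

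The stage labels were checked against 5 marker lists. Of 15 oocyte markers, 14 had a median of at least 1 TPM in MII oocytes, led by Gdf9, and their summed level was 10462 to 17535 TPM there and 3.89 to 1977 TPM in the microdissected libraries, where Dazl led and 14 had such a median. The 14 granulosa markers summed to 379.8 to 3768 TPM in the microdissected libraries, led by Inha, with 9 at a median of at least 1 TPM. In MII oocytes they summed to 49.4 to 111 TPM, led by Esr2, 4 reached that median, and Amhr2, Foxl2, Nr5a1 and Wt1 were at 0 in all 6 libraries. The 6 stroma markers summed to 460.1 to 7486 TPM in the microdissected libraries, led by Col1a1, and to 0 to 1.29 TPM in MII oocytes, where Col1a2, Col3a1 and Lum were at 0. Of 9 endothelial and blood markers, 4 had a median of at least 1 TPM in MII oocytes, led by Pecam1, and none did in the microdissected libraries, where Lyz2 led. Their sums were 44.7 to 93.1 TPM and 0.671 to 566 TPM, and Cdh5, Hbb-bs, Lyz2 and Ptprc were at 0 in every MII library. The 4 cumulus markers with a TPM value summed to 0 to 2.32 TPM in MII oocytes and 0.0244 to 23.03 TPM in microdissected libraries. Vcan led in the microdissected set and was above 0 in 1 MII library, with Tnfaip6 at 0 in every MII library and Has2 at 0 in every microdissected one. Granulosa and stroma RNA was thus measured in every microdissected library beside oocyte RNA. In such bulk libraries, fewer cells of a type and less RNA per cell cannot be told apart.

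Some libraries stood apart. In primordial NTY replicate 3 the 15 oocyte markers summed to 3.89 TPM, 1 of them reached 1 TPM (Nobox, 1.197 TPM), and Bmp15, Figla, Ooep, Oosp1, Sohlh1 and Zp1 were at 0. The other 11 microdissected libraries held 165 to 1977 TPM of these markers. In primordial NTY replicate 3 the granulosa markers summed to 3452 TPM and the stroma markers to 5802 TPM. Primary NTY replicates 2 and 3 carry library codes that are nearly alike, and whether they came from separate material is not stated, so results of this group are also given with both summed. Their counts differed by far more than sampling noise, but so did those of all other pairs of replicates within a group. This cannot decide whether the material was separate.

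Kinesin genes were detected evenly in MII oocytes and unevenly in the microdissected libraries. In MII oocytes 25, 28 and 28 members had at least 1 TPM in the sham libraries and 27, 26 and 27 in the NTY libraries. In primary follicles these numbers were 30, 22 and 26 for sham and 17, 10 and 21 for NTY. In primordial follicles they were 11, 23 and 14 for sham and 18, 23 and 8 for NTY. Primary sham libraries lay below, within and above the range of the MII libraries, every primary NTY library lay under every primary sham library, and the lowest value was that of primordial NTY replicate 3. The same order between primary groups held over all genes, of which 12955, 10565 and 13755 had a count in primary sham and 10255, 7474 and 9611 in primary NTY, so it is not particular to kinesins. Kif5b was the only member with at least 1 TPM in all 18 libraries, whereas 21 members reached this level in all 6 MII libraries and 3 (Kif1b, Kif1c and Kif5b) in all 12 microdissected ones. Kif27 and Kif6 stayed under 1 TPM everywhere. The number of members at 1 TPM in every library of a group was 5, 5, 17, 6, 23 and 21 for primordial sham, primordial NTY, primary sham, primary NTY, MII sham and MII NTY. Without primordial NTY replicate 3 it was 13 in primordial NTY, and without primary NTY replicate 2 it was 13 in primary NTY.

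The summed level of all members overlapped between stages while its make-up differed. It was 634, 1453 and 1336 TPM in MII sham and 973, 1355 and 1464 TPM in MII NTY. Microdissected libraries ranged from 508 to 2057 TPM with a median of 915 TPM. The 4 midzone kinesins held 40.1% to 53.2% (median 51.8%) of the sum in MII libraries and 0% to 28.5% (median 4.09%) in microdissected libraries, with no overlap. The 12 transport kinesins held 14.03% to 21.6% (median 15.9%) in MII and 22.1% to 77.6% (median 43.1%) in microdissected libraries, also with no overlap and in the opposite order. Spindle kinesins, 10 members, held 15.9% to 23.9% (median 20.9%) in MII and 9.61% to 62.5% (median 40.6%) in microdissected libraries, and these ranges overlapped. Cilium and centriole kinesins, also 10 members, held 8.204% to 13.9% (median 10.9%) and 0.367% to 16.7% (median 6.11%), and the 4 remaining kinesins held 0.319% to 0.706% (median 0.491%) and 0.0696% to 4.25% (median 1.48%). These shares were not tested.

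**Figure D1:**
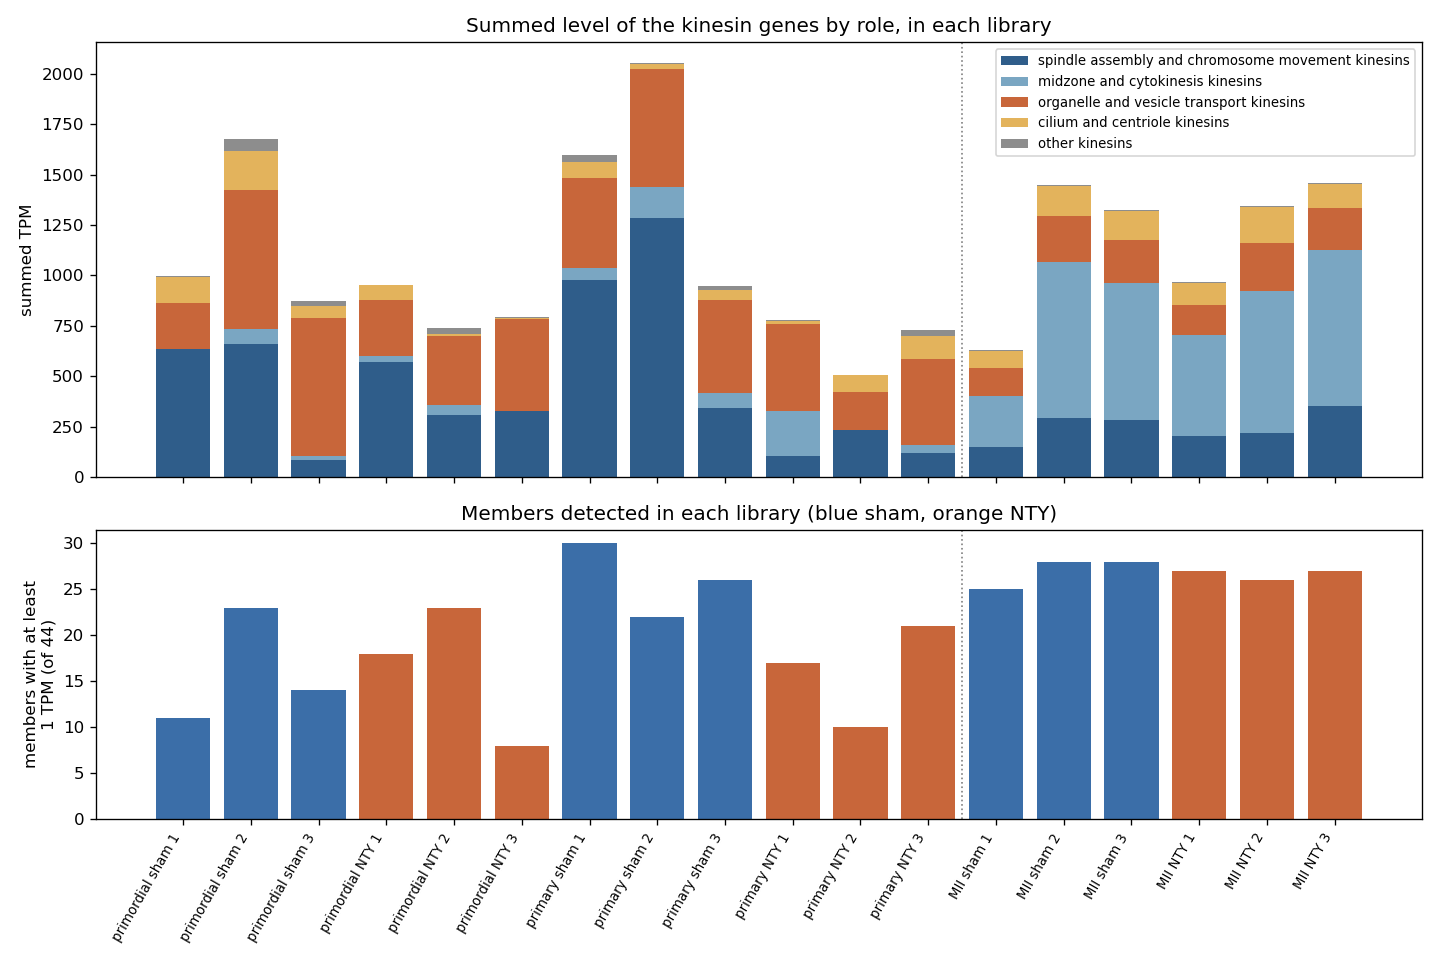
Summed TPM of the kinesin genes by role (upper panel, stacked bars from 0) and number of the 44 members with at least 1 TPM (lower panel) in each of the 18 libraries, with a dotted line between microdissected and MII libraries. Midzone kinesins take the largest part of the sum in each of the 6 MII libraries, and primordial NTY replicate 3 has the fewest members, 8.

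Single libraries often decided a level in the microdissected set. Of members with at least 1000 counts in some replicate of primordial sham, 8 of 16 had at most 3 counts in another replicate of the same group. The number was 6 of 12 in primordial NTY and 8 of 17 in primary NTY. In primary sham it was 0 of 16, in MII sham 0 of 10 and in MII NTY 0 of 10. Over all genes the same loss was seen for 41.2%, 40.8%, 40.5%, 14.3%, 0% and 0.0434% in this order of groups, so uneven detection was general there and not particular to kinesins. Kif5a, a conventional kinesin heavy chain of neurons, shows it at the extreme. It had 0, 0 and 6370 counts in primary NTY, 0, 1373 and 1 in primordial sham and 0 in all 6 other microdissected libraries.

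NTY was compared with sham within each stage to ask whether kinesin transcripts differ with the treatment. In primordial follicles, 36 of 44 members passed the count filter and the edgeR quasi-likelihood test called 0 of them at a Benjamini-Hochberg adjusted p under 0.05, against 0.0095% of all genes tested. By unadjusted p under 0.05 there were 4, DESeq2 called 3 (Kif17, Kif21b and Kif3b), and voom and limma on log2(TPM + 1) called 0. Over all 10522 genes, 1145 had an unadjusted p under 0.05 and DESeq2 called 1201 and voom 0. The limma fit tested 31 members and called 1 of 9341 genes. Compared by CPM after TMM scaling, no member had groups without overlap, against 8.4% of all genes. The median log2 fold change was -0.56 for the members and 0.12 for all genes, and 1 library set this direction, since it was 0.94 beside 0.88 without primordial sham replicate 2. Without primordial NTY replicate 3 the test again called 0 members. In primary follicles the test called 0 of 36 members and 0% of all genes. By unadjusted p under 0.05 there were 3, DESeq2 called 2 (Kif18b and Kif3c), voom called 1 (Kif18b) and limma on log2(TPM + 1) called 0. Over all 10522 genes, 858 had an unadjusted p under 0.05 and DESeq2 called 693 and voom 58, while limma, with 31 members tested, called 3 of 9341. Groups did not overlap for 5 members, Kif1a, Kif3c, Kif18b, Kif23 and Kif24, all lower in NTY, beside 13.9% of all genes, of which 239 were higher and 1221 lower. For Kif3c this rests on 1 count in primary sham replicate 3, under the floor of 3 counts. The median log2 fold change was -1.47 for the members and -0.10 for all genes, or -1.20 and 0.19 with RLE scaling, and -0.76 beside -0.04 without primary sham replicate 2. It was -0.35 beside 0.29 when genes under 10 counts in any compared library were dropped and -0.42 beside 0.12 with only the groups compared. With primary NTY replicates 2 and 3 summed, the test called 0.

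In MII oocytes 31 of 44 members passed the filter. The edgeR quasi-likelihood test (Benjamini-Hochberg) called 0 of them and 0% of all genes, with 0 members at an unadjusted p under 0.05 and 0 called by DESeq2, voom and limma on log2(TPM + 1). Over all 12209 genes, 280 had an unadjusted p under 0.05 and DESeq2 called 29 and voom 0, while limma, with 27 members tested, called 0 of 12365. Groups did not overlap for 1 member, Kif1bp, higher in NTY, beside 8.35% of all genes, of which 321 were higher and 698 lower. The median log2 fold change was 0.16 for the members and 0.00 for all genes, and -0.09 beside -0.03 without MII NTY replicate 3. An NTY effect on kinesin transcripts was therefore not detected at any stage by this test, which does not show that levels were equal.

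Primary were compared with primordial follicles within each treatment to follow the first step of follicle growth. In sham the edgeR quasi-likelihood test (Benjamini-Hochberg) called 0 of 36 members, against 0.0095% of all genes, with 3 at an unadjusted p under 0.05, 2 called by DESeq2 (Kif3b and Kifc3) and 0 by voom and limma on log2(TPM + 1). Over all 10522 genes, 976 had an unadjusted p under 0.05 and DESeq2 called 767 and voom 104, while limma, with 31 members tested, called 4 of 9341. Groups did not overlap for 10 members, all higher in primary follicles, beside 14.2% of all genes, of which 1313 were higher and 183 lower. They were Kif2a, Kif2c and Kif15 of the spindle, Kif20a and Kif23 of the midzone, Kif1a, Kif13a, Kif13b and Kifc3 of transport and Kif24 of the centriole. The median log2 fold change was 1.36 for the members and 0.29 for all genes. It was 0.39 beside 0.24 without primary sham replicate 2, 0.58 beside 0.20 without primary sham replicate 3, 2.80 beside 1.22 without primordial sham replicate 2 and 1.11 beside 1.42 without primordial sham replicate 3. With every gene that had any count it was 0.01 beside 0.53, and -0.24 beside -0.20 when genes under 10 counts in any compared library were dropped, so neither the gap nor the direction held. In NTY the test called 0 of 36 and 0% of all genes, with 5 at an unadjusted p under 0.05, 5 called by DESeq2 (Kif13b, Kif17, Kif1bp, Kif3b and Kif3c) and 0 by voom and limma on log2(TPM + 1). Over all 10522 genes, 1049 had an unadjusted p under 0.05 and DESeq2 called 1121 and voom 2, while limma, with 31 members tested, called 0 of 9341. Groups did not overlap for 4 members, Kif2c and Kif13b being higher and Kif1bp and Kif18b lower in primary follicles, beside 7.84% of all genes, of which 340 were higher and 485 lower. The median log2 fold change was -0.16 for the members and 0.08 for all genes. Its sign turned without primordial NTY replicate 1 (1.12 beside 0.42) or 2 (1.66 beside 0.74). Scaling by RLE (0.05 beside 0.09) and DESeq2 (0.05 beside 0.08) turned it too. It also turned when genes under 10 counts in any compared library were dropped (1.33 beside 0.10). With only the groups compared it was 0.51 beside 0.18, and with replicate numbers as a block 0.25 beside -0.10. Without primary NTY replicate 1 it was -1.35 beside -0.61. The test called 0 members without primordial NTY replicate 3 and 0 when the libraries of primary NTY replicates 2 and 3 were summed.

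Whether the NTY effect differed between primary and primordial follicles was tested as a difference of both effects. The edgeR quasi-likelihood test (Benjamini-Hochberg) called 0 of 36 members and 0.0095% of all genes, with 5 members at an unadjusted p under 0.05, 5 called by DESeq2 (Kif17, Kif21b, Kif26a, Kif3b and Kif3c) and 0 by voom and limma on log2(TPM + 1). Over all 10522 genes, 1246 had an unadjusted p under 0.05 and DESeq2 called 1216 and voom 6, while limma, with 31 members tested, called 1 of 9341. The median of the difference was -1.12 for the members and -0.56 for all genes. It moved to -0.01 beside -0.28 without primordial NTY replicate 1, -0.23 beside -0.48 without primary sham replicate 2 and -2.76 beside -1.46 without primordial sham replicate 2, so the order of members and all genes was not stable. The test called 0 members with primary NTY replicates 2 and 3 summed and 0 without primordial NTY replicate 3. Medians were also taken with genes at 0 in a whole group set to their bound from the 3-count floor, except for the difference. In the order of the comparisons so far, the all-gene medians were 0.08, -0.09, 0.00, 0.28 and 0.06. Those of the members were -0.56, -1.47, 0.16, 1.36 and -0.16. No bound was applied to the difference of both effects, although some members had a group at 0. Comparisons that use a group in common are not independent. Marker medians moved as well, with no marker called by the edgeR quasi-likelihood test. For NTY against sham in primordial follicles the median log2 fold change, with genes at 0 in a whole group at their bound, was -1.77 (1 of 15 positive) for oocyte markers, 1.33 (10 of 12 positive) for granulosa markers and 1.16 (5 of 6 positive) for stroma markers. In the same order it was 0.24 (9 of 15 positive), -1.56 (3 of 12 positive) and 1.44 (5 of 6 positive) in primary follicles. For primary against primordial it was -0.37 (3 of 15 positive), 2.15 (10 of 12 positive) and -0.27 (2 of 6 positive) in sham. In NTY it was 1.47 (15 of 15 positive), -1.14 (3 of 12 positive) and 0.01 (3 of 6 positive). A change of kinesin level and a change of cell mixture cannot be told apart in these medians.

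MII oocytes were compared with oocytes of primary follicles within each treatment, and both comparisons carry the change of library method. In sham, 36 of 44 members were tested and the edgeR quasi-likelihood test (Benjamini-Hochberg) called 7, while it called 33.2% of all genes. Of these, 2 were higher in MII (Kif18a and Kif28) against 23% of all genes, and 5 were lower (Kif1b, Kif1c, Kif3c, Kif4 and Kif16b) against 10.2%. With RLE scaling 2 were higher and 2 lower. The count depended on single libraries, being 4, 3 and 5 without primary sham replicate 1, 2 or 3 and 1, 1 and 0 without MII sham replicate 1, 2 or 3. Calls over all genes fell too, from 4915 to 3148, 3334 and 3283 and to 2401, 2186 and 2191 in the same order. In NTY the test called 11 of 36, while it called 44.5% of all genes. Here 6 were higher in MII (Kif1bp, Kif3b, Kif5c, Kif18b, Kif23 and Kif28) against 31.1% of all genes, and 5 were lower (Kif1a, Kif1b, Kif1c, Kif13b and Kif16b) against 13.5%. This count was 15, 10 and 9 without primary NTY replicate 1, 2 or 3, 6, 5 and 7 without MII NTY replicate 1, 2 or 3 and 9 with primary NTY replicates 2 and 3 summed. All-gene calls went from 6597 to 5940, 5790 and 6176, to 4452, 4585 and 4616 and to 5996. Compared by CPM after TMM scaling, groups did not overlap for 20 of 36 members in sham (9 higher and 11 lower in MII). Over all genes this held for 9194 of 14817 (6014 higher and 3180 lower). In NTY it held for 15 members (12 higher and 3 lower) and 6752 genes (5183 higher and 1569 lower). A lack of overlap between MII and primary follicles was thus common and is not particular to the members named below.

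How the members compare with all genes depended on the fit, and the difference was not tested. Their median log2 fold change was -1.42 in sham beside 0.60 for all genes, and 0.97 in NTY beside 1.71. RLE scaling moved the medians to -0.41 beside 1.65 in sham and 1.34 beside 1.99 in NTY, so fold changes are also given relative to the median of all genes. The order of members and all genes turned round where genes under 10 counts in any compared library were dropped, with 0.58 beside -0.60 in sham and 0.95 beside -0.80 in NTY, over 18 and 8 members. In NTY it also turned with any count (0.56 beside 0.00) and by limma on log2(TPM + 1) (1.67 beside 1.39), and in sham limma gave 0.09 beside 1.11. With genes at 0 in a whole group set to their bound from the 3-count floor, the member medians were -1.42 and 0.97 and those of all genes 0.60 and 1.52. MII against primary uses the same primary libraries as the comparisons of NTY with sham and of primary with primordial follicles, so these results are not independent.

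Midzone kinesins, which bundle and bridge the microtubules between separating chromosomes and serve the final abscission of the cell, had the largest summed level of the roles in every MII library. Kif23 (ENSMUSG00000032254, chr9:61915905-61946774 on the minus strand) is the motor of centralspindlin, the complex that sets up the midzone and recruits the cleavage furrow. In MII oocytes Kif23 had 113, 319 and 357 TPM in the sham group and 257, 316 and 381 TPM in the NTY group. Primary follicles had Kif23 at 26.1, 45.6 and 46.1 TPM in the sham group and 0.764, 0 and 2.400 TPM in the NTY group, and primordial follicles at 0, 11.6 and 6.15 TPM in the sham group and 0, 27.7 and 0 TPM in the NTY group. Every MII library lay above every microdissected library, and in primary follicles the 3 NTY libraries lay below the 3 sham libraries, with primary NTY replicate 2 at 0. In NTY, MII against primary gave a log2 fold change of 7.43 (SE 1.61, Benjamini-Hochberg adjusted p = 0.00583) by the edgeR quasi-likelihood test, or 5.72 relative to the median of all genes. That call was kept in each alternative in which Kif23 was tested, with adjusted p from 6.76e-11 to 0.0309. The lower Kif23 level of primary NTY was not called, and the difference between treatments in the MII against primary change was not tested.

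Kif20a (ENSMUSG00000003779, chr18:34624613-34633277 on the plus strand) brings the chromosomal passenger complex to the midzone. In MII oocytes Kif20a had 96.5, 286 and 175 TPM in the sham group and 165, 194 and 245 TPM in the NTY group. Primary follicles had Kif20a at 21.01, 108 and 7.08 TPM in the sham group and 127, 0 and 33.5 TPM in the NTY group, and primordial follicles at 0, 0 and 0.9003 TPM in the sham group and 2.79, 2.45 and 0 TPM in the NTY group. It was the second most abundant kinesin in all 6 MII libraries and was also high in primary sham replicate 2 and primary NTY replicate 1, so MII and primary follicles overlapped in sham, and in NTY they overlapped in normalised counts though not in TPM. Its gene overlaps Cdc23 on the opposite strand, which had 17.5 to 55.7 TPM in MII oocytes and 0 to 522 TPM in microdissected libraries. The sources used here do not state whether counting used strand, and reads from overlapping genes cannot then be told apart. Kif20b (ENSMUSG00000024795, chr19:34922361-34975745 on the plus strand) acts late in cytokinesis. In MII oocytes Kif20b had 35.99, 140.2 and 127 TPM in the sham group and 67.8, 166 and 132 TPM in the NTY group. Primary follicles had Kif20b at 7.302, 0.627 and 16.5 TPM in the sham group and 93.98, 0 and 0.395 TPM in the NTY group, and primordial follicles at 0, 61.2 and 0 TPM in the sham group and 23.7, 20.3 and 0 TPM in the NTY group. The MII libraries were all high, whereas the microdissected values ran from 0 to values above the lowest MII library.

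Kif14 (ENSMUSG00000041498, chr1:136466343-136531511 on the plus strand) recruits citron kinase to the midbody. In MII oocytes Kif14 had 8.64, 27.5 and 20.04 TPM in the sham group and 12.5, 28.8 and 18.8 TPM in the NTY group. Primary follicles had Kif14 at 5.84, 0.319 and 3.42 TPM in the sham group and 0, 0 and 1.18 TPM in the NTY group, and primordial follicles at 0.512, 1.73 and 10.3 TPM in the sham group and 2.49, 0.1905 and 0.1102 TPM in the NTY group. Its MII libraries lay above all primary and primordial libraries except that primordial sham replicate 3 lay above MII sham replicate 1. In MII against primary the edgeR quasi-likelihood test called 0 of the 4 midzone kinesins in sham and 1 of 4 in NTY, beside 23% and 31.1% of all genes called higher. Other fits called more. In sham, DESeq2 called Kif20b and Kif23, voom these and Kif20a, limma on log2(TPM + 1) Kif14 and Kif23, and the edgeR test on only the groups compared Kif23. In NTY, Kif14 was also called with RLE scaling, by DESeq2, by voom, by limma on log2(TPM + 1) and without primary NTY replicate 3, and Kif20b by limma and without primary NTY replicate 1. All 4 had positive log2 fold changes with medians of 2.05 in sham and 2.96 in NTY. Summed over the role, midzone kinesins had 254, 773 and 679 TPM in MII sham and 502, 705 and 777 TPM in MII NTY. Primary follicles had 60.2, 155 and 73.1 TPM in sham and 222, 0 and 37.4 TPM in NTY, and primordial follicles 0.512, 74.5 and 17.3 and 28.97, 50.7 and 0.1102 TPM. The sum was higher in all 6 MII libraries than in any microdissected library, and primary NTY replicate 2 had none of it.

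**Figure D2:**
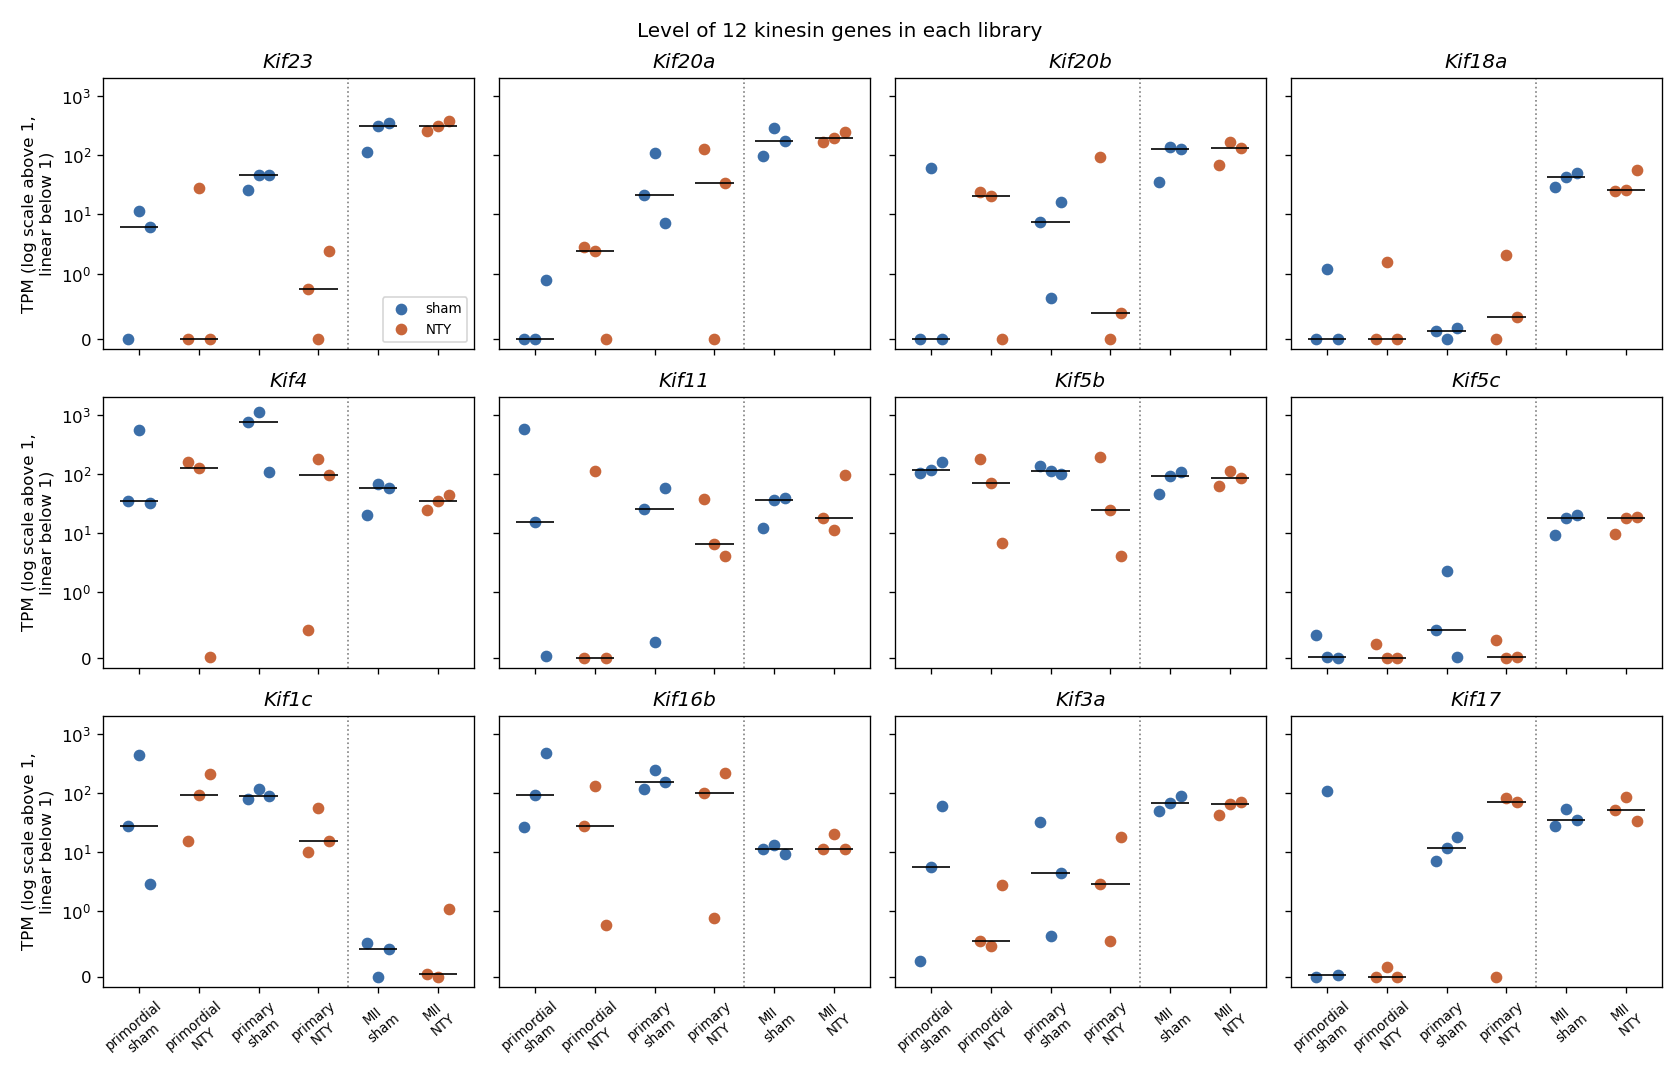
TPM of 12 kinesin genes in each library, on a log axis above 1 and a linear axis below 1, by stage and treatment (3 points a group, blue sham and orange NTY, bar at the median), with a dotted line between microdissected and MII libraries. Kif23, Kif18a and Kif5c stand higher in all 6 MII libraries than in all 12 microdissected ones, Kif1c stands lower in all 6, and Kif5b is above 1 TPM in all 18.

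Spindle kinesins differed from each other in where they were high. Kif18a (ENSMUSG00000027115, chr2:109280738-109341747 on the plus strand) limits microtubule growth at kinetochores and keeps chromosomes at the metaphase plate. In MII oocytes Kif18a had 29.5, 42.6 and 50.8 TPM in the sham group and 25.4, 26.2 and 56.6 TPM in the NTY group. Primary follicles had Kif18a at 0.118, 0 and 0.177 TPM in the sham group and 0, 2.03 and 0.343 TPM in the NTY group, and primordial follicles at 0, 1.18 and 0 TPM in the sham group and 0, 1.59 and 0 TPM in the NTY group. Every MII library was above every microdissected library, in which the highest value was 2.03 TPM. In sham, MII against primary gave a log2 fold change of 8.15 (SE 2.33, Benjamini-Hochberg adjusted p = 0.0217) by the edgeR quasi-likelihood test, or 7.55 relative to all genes. Each library left out ended this call, with adjusted p from 0.0509 without primary sham replicate 2 to 0.0704 without primary sham replicate 1, and over all alternatives adjusted p ran from 2.04e-07 to 0.0704. In NTY the same test did not call Kif18a, which DESeq2, voom, limma on log2(TPM + 1) and the edgeR test without primary NTY replicate 2 did. It overlaps Mettl15 on the opposite strand, which had 21.7 to 36.1 TPM in MII oocytes and 0 to 0.774 TPM in microdissected libraries. If counting did not use strand, reads from where both genes overlap cannot be told apart.

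Kif18b (ENSMUSG00000051378, chr11:102905529-102925124 on the minus strand) takes apart the plus ends of astral microtubules. In MII oocytes Kif18b had 5.500, 8.11 and 8.24 TPM in the sham group and 12.7, 0.0806 and 9.405 TPM in the NTY group. Primary follicles had Kif18b at 18.8, 72.3 and 19.4 TPM in the sham group and 0, 0 and 0 TPM in the NTY group, and primordial follicles at 11.9, 21.3 and 0 TPM in the sham group and 2.55, 0.237 and 0.0355 TPM in the NTY group. In primary follicles all 3 NTY libraries were at 0 counts while the sham libraries had 465, 1952 and 558 counts. The level was at least 347-fold lower in primary NTY than in primary sham, with 3 counts per library as the floor, and the edgeR quasi-likelihood test did not call it (Benjamini-Hochberg adjusted p = 0.4997, range over the alternatives 0.000113 to 0.7703), while DESeq2 and voom did. Primary sham replicate 2, with 1952 counts, carries most of this bound. In NTY Kif18b was at least 82.9-fold higher in MII than in primary follicles and was called by the edgeR quasi-likelihood test (Benjamini-Hochberg adjusted p = 0.00974), a call that was lost with voom (adjusted p = 0.106) and by limma on log2(TPM + 1) (adjusted p = 0.05099), the range over alternatives being 3.74e-06 to 0.106. MII NTY replicate 2 had 1 count of Kif18b. In sham the order was the opposite, with every primary library above every MII library, and the edgeR test called this only when fitted to the groups compared alone.

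Kif4 (ENSMUSG00000034311, chrX:100625737-100727214 on the plus strand), a chromosome-bound kinesin that works with condensin and at the midzone, was the kinesin with the highest single value. In MII oocytes Kif4 had 20.6, 67.9 and 58.7 TPM in the sham group and 24.6, 34.8 and 44.1 TPM in the NTY group. Primary follicles had Kif4 at 778, 1120.2 and 110.4 TPM in the sham group and 0.433, 180.2 and 98.1 TPM in the NTY group, and primordial follicles at 35.5, 559.5 and 32.7 TPM in the sham group and 162, 127 and 0.02300 TPM in the NTY group. Primary sham replicates 1 and 2 and primordial sham replicate 2 were high, and primordial NTY replicate 3 and primary NTY replicate 1 were near 0. The 3 MII sham libraries lay below the 3 primary sham libraries, and Kif4 was called lower in MII in sham by the edgeR quasi-likelihood test, outside the 3 largest falls and rises. This call was not made with RLE scaling, limma on log2(TPM + 1) or the 10-count filter, without primary sham replicate 1 or 2 or without any of the MII sham libraries. Groups overlapped in NTY. Kif4 overlaps Pdzd11 on the opposite strand, which had 4.78 to 35.9 TPM in MII oocytes and 0.0596 to 322 TPM in microdissected libraries. Their reads cannot be told apart where they overlap if counting did not use strand.

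Kif11 (ENSMUSG00000012443, chr19:37376403-37421859 on the plus strand) slides antiparallel microtubules and pushes spindle poles apart. In MII oocytes Kif11 had 12.3, 36.8 and 39.6 TPM in the sham group and 18.2, 11.53 and 98.7 TPM in the NTY group. Primary follicles had Kif11 at 25.98, 0.247 and 57.8 TPM in the sham group and 37.9, 6.68 and 4.09 TPM in the NTY group, and primordial follicles at 583, 15.5 and 0.0322 TPM in the sham group and 0, 115 and 0 TPM in the NTY group. Primordial sham replicate 1 held the highest value, and primordial NTY replicates 1 and 3 were at 0. Groups overlapped in every comparison, and none called Kif11. Kif15, which can stand in for Kif11 in spindle building, had 52, 339 and 995 counts in primary sham, 0, 3157 and 69 in primary NTY and at most 31 in any MII library. Kif15 and Kif11 thus differed in MII oocytes, where every library had at least 11.53 TPM of Kif11 and under 1 TPM of Kif15.

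Kif22 (ENSMUSG00000030677, chr7:127027729-127042471 on the minus strand), a chromosome-bound kinesin that pushes chromosome arms towards the spindle equator, was high in every MII library. In MII oocytes Kif22 had 57.3, 67.4 and 51.5 TPM in the sham group and 90.9, 69.05 and 74.2 TPM in the NTY group. Primary follicles had Kif22 at 38.3, 10.4 and 12.5 TPM in the sham group and 12.6, 0.114 and 2.596 TPM in the NTY group, and primordial follicles at 2.29, 50.3 and 0 TPM in the sham group and 49.1, 14.8 and 0 TPM in the NTY group. All MII libraries lay above all microdissected libraries, though narrowly, and primordial sham replicate 3 and primordial NTY replicate 3 were at 0. Among MII libraries Kif22 was among the 3 members with the lowest unadjusted p for NTY against sham, with a log2 fold change of 0.43 (SE 0.30, Benjamini-Hochberg adjusted p = 0.9998) by the edgeR quasi-likelihood test, and the groups overlapped in normalised counts though not in TPM. Kif2c (ENSMUSG00000028678, chr4:117159639-117182639 on the minus strand) takes apart microtubules at centromeres and so corrects wrong attachments. In MII oocytes Kif2c had 10.9, 46.01 and 44.00 TPM in the sham group and 11.4, 49.7 and 33.1 TPM in the NTY group. Primary follicles had Kif2c at 42.3, 10.3 and 34.9 TPM in the sham group and 5.77, 4.97 and 10.4 TPM in the NTY group, and primordial follicles at 0, 4.36 and 8.05 TPM in the sham group and 0.649, 0.581 and 4.01 TPM in the NTY group. Primary follicles lay above primordial follicles in both treatments, without overlap and without a call.

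Kif2a (ENSMUSG00000021693, chr13:106958996-107022126 on the minus strand), its relative at spindle poles, was high in other libraries. In MII oocytes Kif2a had 11.96, 21.9 and 24.99 TPM in the sham group and 19.4, 23.6 and 32.9 TPM in the NTY group. Primary follicles had Kif2a at 71.3, 60.4 and 95.3 TPM in the sham group and 47.4, 0 and 0.156 TPM in the NTY group, and primordial follicles at 0, 1.73 and 42.4 TPM in the sham group and 356, 41.2 and 321 TPM in the NTY group. It was the most abundant kinesin of primordial NTY replicates 1 and 3, replicate 3 being the library with little oocyte RNA, and had 0 counts in primordial sham replicate 1 and primary NTY replicate 2. Kif2a overlaps Dimt1 on the opposite strand, which had 2.27 to 14.5 TPM in MII oocytes and 0 to 215 TPM in microdissected libraries. Kifc1, which focuses spindle poles as a minus-end motor, and its close relative Kifc5b had 0 to 2.83 TPM (median 0.561) and 0 to 0.3502 TPM (median 0.05404) in MII oocytes. In microdissected libraries they had 0 to 7.34 TPM (median 1.05) and 0 to 3.18 TPM (median 0.169). Kifc1 shares 45.8% of its 50-base stretches with Kifc5b, so how reads were split between them is uncertain. Of the 9 spindle kinesins tested in MII against primary, the edgeR quasi-likelihood test called 1 higher and 1 lower in sham and 1 higher and 0 lower in NTY (all genes 23% higher and 10.2% lower in sham and 31.1% and 13.5% in NTY), with medians of -2.09 and 0.63.

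Transport kinesins carry vesicles and organelles, and several were called lower in MII than in primary follicles. Kif5b (ENSMUSG00000006740, chr18:6201002-6242174 on the minus strand) is the widely used conventional kinesin heavy chain. In MII oocytes Kif5b had 45.4, 94.8 and 107 TPM in the sham group and 63.1, 114 and 85.3 TPM in the NTY group. Primary follicles had Kif5b at 137, 112 and 102 TPM in the sham group and 192, 25.03 and 4.05 TPM in the NTY group, and primordial follicles at 103, 116 and 161 TPM in the sham group and 183, 70.8 and 6.79 TPM in the NTY group. It was present at every stage, and the low libraries were primordial NTY replicate 3 and primary NTY replicate 3. No comparison called Kif5b. It overlaps Gm17036 on the opposite strand, which had 44.9 to 85.7 TPM in MII oocytes and 0 TPM in microdissected libraries. Kif5c (ENSMUSG00000026764, chr2:49619298-49774778 on the plus strand) is a heavy chain known from neurons. In MII oocytes Kif5c had 9.44, 18.4 and 20.7 TPM in the sham group and 9.71, 18.3 and 18.7 TPM in the NTY group. Primary follicles had Kif5c at 0.426, 2.31 and 0.0174 TPM in the sham group and 0.282, 0 and 0.0175 TPM in the NTY group, and primordial follicles at 0.356, 0.0164 and 0 TPM in the sham group and 0.209, 0 and 0 TPM in the NTY group. All MII libraries lay above all microdissected libraries, and Kif5c was called higher in MII in NTY by the edgeR quasi-likelihood test but not in sham, where DESeq2, voom and limma on log2(TPM + 1) called it. The NTY call was not made with only the groups compared, with the summed pair of primary NTY libraries, without primary NTY replicate 2 or 3 or without any of the MII NTY libraries. Whether both treatments differ in this change was not tested. The third heavy chain gene, Kif5a, had 1 count in MII sham replicate 1 and 0 in the other MII libraries.

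Kif1c (ENSMUSG00000020821, chr11:70700548-70731964 on the plus strand) moves vesicles towards the cell edge. In MII oocytes Kif1c had 0.5205, 0 and 0.421 TPM in the sham group and 0.0402, 0 and 1.09 TPM in the NTY group. Primary follicles had Kif1c at 79.6, 115 and 90.6 TPM in the sham group and 9.98, 56.7 and 15.4 TPM in the NTY group, and primordial follicles at 27.6, 438 and 2.84 TPM in the sham group and 15.2, 92.2 and 209 TPM in the NTY group. All 6 MII libraries lay below all 12 microdissected libraries. MII against primary gave a log2 fold change of -8.68 (SE 2.33, Benjamini-Hochberg adjusted p = 0.0167) in sham by the edgeR quasi-likelihood test, or -9.29 relative to all genes. This call was lost without MII sham replicate 1, 2 or 3 (adjusted p 0.05698, 0.0549 and 0.0693), and adjusted p ran from 2.46e-05 to 0.0693 over all alternatives. In NTY it gave a log2 fold change of -7.04 (SE 2.17, Benjamini-Hochberg adjusted p = 0.0236) by the edgeR quasi-likelihood test, or -8.75 relative to all genes. This call was lost without MII NTY replicate 1 or 2 (adjusted p 0.0742 and 0.0574) and with only the groups compared (adjusted p 0.0693), and adjusted p ran from 6.00e-05 to 0.0742. Kif1c differs in this from its relative Kif1b (ENSMUSG00000063077, chr4:149176319-149307693 on the minus strand), which carries mitochondria and vesicles and was lower in MII but present. In MII oocytes Kif1b had 5.404, 6.77 and 5.103 TPM in the sham group and 0.964, 3.63 and 6.96 TPM in the NTY group. Primary follicles had Kif1b at 48.1, 14.7 and 80.3 TPM in the sham group and 54.5, 51.4 and 37.1 TPM in the NTY group, and primordial follicles at 72.5, 15.6 and 50.6 TPM in the sham group and 18.3, 27.5 and 240.4 TPM in the NTY group. Its MII libraries lay below all microdissected libraries too, and it was called lower in MII in both treatments by the edgeR quasi-likelihood test. The NTY call was kept in every alternative. The sham call was not made with RLE scaling, with any count, with genes under 10 counts in any library dropped, without primary sham replicate 3 or without any of the MII sham libraries.

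Kif1a (ENSMUSG00000014602, chr1:93015464-93101951 on the minus strand), known for carrying synaptic vesicle precursors, was at 0 in all 3 MII NTY libraries. In MII sham it had 0, 3 and 11 counts. Primary follicles had Kif1a at 5.51, 4.58 and 4.05 TPM in the sham group and 1.94, 0 and 0.107 TPM in the NTY group, and primordial follicles at 0, 0.227 and 1.35 TPM in the sham group and 23.3, 2.63 and 0 TPM in the NTY group. Primordial NTY replicate 1 held the highest value, and the primary sham libraries were close to each other while primary NTY replicates 2 and 3 were near 0. Kif1a was at least 6.32-fold lower in MII than in primary follicles in NTY, by the floor of 3 counts per library, and was called by the edgeR quasi-likelihood test (Benjamini-Hochberg adjusted p = 0.03195). This bound rests on primary NTY replicate 1, since the counts in primary NTY were 144, 0 and 8, and the groups overlapped. The call was lost without primary NTY replicate 1 (adjusted p = 0.0994) and without MII NTY replicate 1, 2 or 3 (0.08002, 0.0805 and 0.0792), by voom (0.174) and by limma run on log2(TPM + 1) (0.294), the range being 0.00319 to 0.294.

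Kif16b (ENSMUSG00000038844, chr2:142617474-142901531 on the minus strand) moves early endosomes. In MII oocytes Kif16b had 11.3, 13.3 and 9.201 TPM in the sham group and 11.3, 20.2 and 11.3 TPM in the NTY group. Primary follicles had Kif16b at 118, 248 and 155 TPM in the sham group and 101, 0.895 and 215 TPM in the NTY group, and primordial follicles at 26.6, 94.4 and 468 TPM in the sham group and 27.9, 133 and 0.797 TPM in the NTY group. Every MII library was between 9.201 and 20.2 TPM, all primary sham libraries were higher, and primary NTY replicate 2 and primordial NTY replicate 3 were under 1 TPM. In sham, MII against primary gave a log2 fold change of -4.57 (SE 1.34, Benjamini-Hochberg adjusted p = 0.0242) by the edgeR quasi-likelihood test, or -5.17 relative to all genes. This call was lost without primary sham replicate 2 (adjusted p = 0.0608) and without MII sham replicate 1, 2 or 3 (0.0779, 0.0866 and 0.0892), and with at least 10 counts required in every library (0.0614), the range being 0.000355 to 0.0892. It was also called lower in NTY, where the groups overlapped and the call was not made with RLE scaling, voom, limma on log2(TPM + 1), the 10-count filter or only the groups compared, without primary NTY replicate 3 or without any of the MII NTY libraries.

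Kif13b (ENSMUSG00000060012, chr14:64647265-64809617 on the plus strand), a motor for membrane cargo at the cell edge, stood higher in primary than in primordial follicles of the sham group. In MII oocytes Kif13b had 0.182, 1.18 and 0.636 TPM in the sham group and 1.06, 0 and 0.158 TPM in the NTY group. Primary follicles had Kif13b at 9.62, 10.1 and 12.8 TPM in the sham group and 3.01, 52.2 and 2.08 TPM in the NTY group, and primordial follicles at 0.847, 1.56 and 0.191 TPM in the sham group and 0.0802, 2.11 and 0.0292 TPM in the NTY group. Every primary sham library was above every primordial sham library, the NTY groups lay apart in normalised counts but not in TPM, where primary NTY replicate 3 stood just under primordial NTY replicate 2, and MII libraries were near or under 1 TPM. In NTY, MII against primary gave a log2 fold change of -6.62 (SE 2.13, Benjamini-Hochberg adjusted p = 0.0279) by the edgeR quasi-likelihood test, or -8.33 relative to all genes. This call was lost without primary NTY replicate 2 (adjusted p = 0.108), the library with 4855 counts, and without MII NTY replicate 2 or 3 (0.0606 and 0.0917), and with only the groups compared (0.0983), the range being 3.71e-05 to 0.108. Kif13a, its relative that serves recycling endosomes, had 28.8, 7.598 and 3.43 TPM in primary sham and 0.105, 1.77 and 0.614 TPM in primordial sham. These groups did not overlap either, and MII oocytes had 0 to 4.84 TPM (median 2.89).

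Kifc3 (ENSMUSG00000031788, chr8:95099828-95202812 on the minus strand), a minus-end motor of Golgi and junction traffic, was among the abundant kinesins of MII oocytes. In MII oocytes Kifc3 had 61.5, 88.6 and 66.4 TPM in the sham group and 57.99, 73.5 and 81.2 TPM in the NTY group. Primary follicles had Kifc3 at 15.00, 69.5 and 9.27 TPM in the sham group and 48.2, 0.528 and 17.5 TPM in the NTY group, and primordial follicles at 0.04001, 0.266 and 0 TPM in the sham group and 8.896, 11.6 and 0 TPM in the NTY group. The MII libraries were within 57.99 to 88.6 TPM, and primordial sham libraries were all under 1 TPM and lay below the 3 primary sham libraries. Primary against primordial in sham gave a log2 fold change of 8.16 (SE 3.80, Benjamini-Hochberg adjusted p = 0.496) by the edgeR quasi-likelihood test, while DESeq2 called it (adjusted p = 0.00422, range 0.00422 to 0.739). Kifc2, a minus-end motor of neurons, was under 1 TPM in every MII library and reached 3.42 TPM in 1 microdissected library.

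Kif28 (ENSMUSG00000087236, chr1:179695297-179745271 on the minus strand), a little studied kinesin placed with the transport motors, had 1.67, 0.959 and 3.11 TPM in MII sham and 1.15, 3.89 and 0.664 TPM in MII NTY. Its counts there were 25, 12 and 36 and 14, 48 and 8, and all primary follicle libraries were at 0. The level was thus low but present in all 6 MII libraries. It was at least 20.3-fold higher in MII than in primary follicles in sham and at least 20.5-fold in NTY by the floor of 3 counts per library, and the edgeR quasi-likelihood test called both (Benjamini-Hochberg adjusted p = 0.0135 in sham and 0.0122 in NTY). MII NTY replicate 2, with 48 counts, carries most of the NTY bound. Because all primary libraries were at 0, Kif28 passed the count filter through its MII libraries only. It was also called in both treatments with any count, but that filter too kept it through its MII counts only, so this is no separate support. Without MII sham replicate 3 the sham call was lost (adjusted p = 0.0546, range 8.78e-05 to 0.0546), while the NTY call was kept in each alternative in which Kif28 was tested (0.000849 to 0.0473). Kif28 overlaps Ahctf1 on the same strand and shares 3.04% of its 50-base stretches with it. Ahctf1 had 14.2 to 30.8 TPM in MII oocytes and 0 to 12.2 TPM in microdissected libraries, and reads of both genes cannot be told apart in the stretches they share. Of 11 transport kinesins tested in MII against primary, the edgeR quasi-likelihood test called 1 higher and 3 lower in sham and 2 higher and 5 lower in NTY, beside all-gene shares of 23% higher and 10.2% lower in sham and 31.1% and 13.5% in NTY. The medians of the role were -3.20 and -3.27, or -2.66 in NTY with genes at 0 in a whole group set to their bound.

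Cilium and centriole kinesins were led in MII oocytes by Kif3a and Kif17. Kif3a (ENSMUSG00000018395, chr11:53567379-53601967 on the plus strand) and Kif3b (ENSMUSG00000027475, chr2:153291413-153333390 on the plus strand) form the motor that carries cargo into the cilium. In MII oocytes Kif3a had 48.8, 67.9 and 90.9 TPM in the sham group and 43.2, 65.1 and 71.4 TPM in the NTY group. Primary follicles had Kif3a at 32.6, 0.627 and 4.44 TPM in the sham group and 2.84, 0.546 and 18.3 TPM in the NTY group, and primordial follicles at 0.236, 5.57 and 60.8 TPM in the sham group and 0.541, 0.472 and 2.83 TPM in the NTY group. All MII libraries were high, and among microdissected libraries only primordial sham replicate 3 stood within their range. In MII oocytes Kif3b had 7.18, 13.3 and 9.31 TPM in the sham group and 8.88, 19.6 and 8.26 TPM in the NTY group. Primary follicles had Kif3b at 5.11, 0.164 and 20.9 TPM in the sham group and 0.156, 0.0248 and 0.0443 TPM in the NTY group, and primordial follicles at 0, 0.188 and 0 TPM in the sham group and 65.2, 9.604 and 0.09001 TPM in the NTY group. Kif3b was high in primordial NTY replicate 1 and near 0 in all primary NTY libraries, and it was called higher in MII in NTY by the edgeR quasi-likelihood test. Among the 3 lowest unadjusted p for primary against primordial in NTY, it had a log2 fold change of -8.03 (SE 3.85, Benjamini-Hochberg adjusted p = 0.485) by the edgeR quasi-likelihood test, and DESeq2 called it (adjusted p = 0.00415, range 0.00415 to 0.961). Its NTY effects in primary and primordial follicles differed by -14.69 on the log2 scale (SE 5.29, Benjamini-Hochberg adjusted p = 0.222 by the edgeR quasi-likelihood test), and DESeq2 called it too (adjusted p = 6.60e-05, range 6.60e-05 to 0.611). Kif3a and Kif3b proteins work as a pair, and their transcripts differed in MII oocytes, with 43.2 to 90.9 TPM (median 66.5) and 7.18 to 19.6 TPM (median 9.09).

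Kif3c (ENSMUSG00000020668, chr12:3365132-3406494 on the plus strand), a relative that can pair with Kif3a, was nearly missing from MII oocytes. It had 0, 2 and 0 counts in MII sham and 0, 0 and 13 in MII NTY. Primary follicles had 987, 619 and 1 counts in sham and 0, 0 and 0 in NTY, and primordial follicles 0, 1565 and 17 and 92, 0 and 0. Primary NTY was at 0 throughout, and primary sham replicate 3 was close to it. In sham, MII oocytes had 0.306% of the primary level per total count (exact 95% counting interval 0.03700% to 1.11%), and the edgeR quasi-likelihood test called this (Benjamini-Hochberg adjusted p = 0.0472). The call was lost with RLE scaling (adjusted p = 0.0541), without primary sham replicate 1 or 2 (0.0869 and 0.0804) and without MII sham replicate 1, 2 or 3 (0.137, 0.102 and 0.136), the range being 0.007304 to 0.137. In primary follicles Kif3c was at least 184-fold lower in NTY than in sham by the floor of 3 counts per library, which the edgeR quasi-likelihood test did not call (Benjamini-Hochberg adjusted p = 0.4997) and DESeq2 did (adjusted p = 6.58e-13, range 6.58e-13 to 0.7703).

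Kif17 (ENSMUSG00000028758, chr4:138250435-138301967 on the plus strand), a motor of cilia and dendrites, was present in every MII library. In MII oocytes Kif17 had 28.2, 53.8 and 34.9 TPM in the sham group and 51.3, 85.00 and 33.5 TPM in the NTY group. Primary follicles had Kif17 at 6.98, 11.7 and 18.1 TPM in the sham group and 0, 83.9 and 70.5 TPM in the NTY group, and primordial follicles at 0, 107 and 0.0339 TPM in the sham group and 0, 0.154 and 0 TPM in the NTY group. In primordial follicles 1 library, sham replicate 2, carried nearly all of it, and in primary NTY replicates 2 and 3 were high and replicate 1 was at 0. Primordial NTY against sham gave a log2 fold change of -9.58 (SE 4.14, Benjamini-Hochberg adjusted p = 0.409) by the edgeR quasi-likelihood test. Without primordial sham replicate 2 the fold change turned to 1.12 (adjusted p = 0.954, range 0.00932 to 0.954). Primary against primordial in NTY gave a log2 fold change of 10.35 (SE 4.26, Benjamini-Hochberg adjusted p = 0.439) by the edgeR quasi-likelihood test, called only by DESeq2 (adjusted p = 0.00271, range 0.00271 to 0.961). In MII oocytes NTY against sham gave a log2 fold change of 0.56 (SE 0.36, Benjamini-Hochberg adjusted p = 0.9998) by the edgeR quasi-likelihood test, and the groups overlapped.

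Other cilium and centriole kinesins were low or uneven. Kif24, a centriole kinesin that holds back cilium growth, had 2.01, 9.25 and 4.97 TPM in the sham group and 2.74, 2.66 and 5.18 TPM in the NTY group in MII oocytes. Primary follicles had 6.32, 0.875 and 4.905 TPM in the sham group and 0.0314, 0.401 and 0.4203 TPM in the NTY group, and Kif24 was lower in all 3 primary NTY libraries than in any primary sham library. Kif7, a regulator of Hedgehog signalling at the tip of the cilium, had 1.03 to 2.01 TPM (median 1.43) in MII and 0 to 28.2 TPM (median 0.3799) in microdissected libraries. It overlaps Ticrr on the opposite strand, which had 74.3 to 113 TPM in MII oocytes and 0 to 10.1 TPM in microdissected libraries. Kif9, a kinesin of motile cilia, had 2420, 2085 and 0 counts in primordial sham and at most 77 in any library of the other groups. Primordial sham replicates 1 and 2 thus carried nearly all of it. Kif19a, which shortens cilia, was at 0 except for 0, 58 and 1 counts in MII NTY. Kif27 and Kif6 had at most 14 and 10 counts in any library. Of 7 cilium and centriole kinesins tested in MII against primary, the edgeR quasi-likelihood test called 0 higher and 1 lower in sham and 1 higher and 0 lower in NTY (all genes 23% higher and 10.2% lower in sham and 31.1% and 13.5% in NTY), with medians of -0.42 and 2.24, or 2.01 in NTY with genes at 0 in a whole group set to their bound.

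The remaining kinesins were low in MII oocytes. Kif21b, which slows microtubule growth, had 0, 0 and 0 counts in primordial sham, 0, 342 and 688 in primordial NTY, 553, 0 and 47 in primary sham and 22, 0 and 0 in primary NTY, so primordial sham was the group at 0. It was at least 90.3-fold higher in primordial NTY than in primordial sham by the floor of 3 counts per library, not called by the edgeR quasi-likelihood test (Benjamini-Hochberg adjusted p = 0.405) and called by DESeq2 (adjusted p = 0.00612, range 0.00612 to 0.939). Primordial NTY replicate 3, the library with little oocyte RNA, held the highest of these counts, and replicate 1 had 0. In sham it was at least 56.7-fold higher in primary than in primordial follicles, again not called by the edgeR quasi-likelihood test (Benjamini-Hochberg adjusted p = 0.473), and primary sham replicate 1 carries most of this bound. Kif26a, a kinesin without motor activity that acts in signalling, was at 0 in primordial sham and primary NTY. It had 1, 235 and 0 counts in primordial NTY and 222, 0 and 37 in primary sham. With the same floor it was at least 22.6-fold higher in primordial NTY than sham, at least 29.02-fold lower in primary NTY than sham, at least 24.5-fold higher in primary than primordial sham and at least 26.8-fold lower in primary than primordial NTY. Each of these rests on 1 or 2 libraries with counts, and none was called by the edgeR quasi-likelihood test (Benjamini-Hochberg adjusted p = 0.405, 0.4997, 0.473 and 0.439). When the NTY effects of both stages were contrasted, the same test gave adjusted p = 0.153 for Kif26a and 0.2096 for Kif21b, and DESeq2 called both (adjusted p = 0.00988 and 0.00718, with ranges of 0.00988 to 0.313 and 0.00718 to 0.611).

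Kif26b, its relative, had 0 to 58.4 TPM (median 1.700) in microdissected libraries and 0 to 1.61 TPM (median 0.347) in MII oocytes. Kif21a, a brake on microtubule growth at the cell edge, had 0 to 21.1 TPM (median 0.362) and 0 to 2.31 TPM (median 1.46). The edgeR quasi-likelihood test called none of the 4 kinesins of this set in MII against primary. In NTY, DESeq2, voom and limma on log2(TPM + 1) called Kif21b higher in MII, as did the edgeR test without primary NTY replicate 1. Kif21b had 2.04 to 6.57 TPM (median 3.38) in MII oocytes and 0 to 7.16 TPM (median 0) in microdissected libraries. The medians of the set were -3.00 and 2.13, or 0.58 in NTY with genes at 0 in a whole group set to their bound. Of the 4 members without a motor, Kif1bp had 1.403, 2.902 and 3.07 TPM in the sham group and 5.14, 9.36 and 2.65 TPM in the NTY group in MII oocytes. The MII groups lay apart in normalised counts but not in TPM, where NTY replicate 3 was below sham replicates 2 and 3. NTY against sham gave a log2 fold change of 1.23 (SE 0.76, Benjamini-Hochberg adjusted p = 0.9998) by the edgeR quasi-likelihood test. Kif1bp had 4, 4 and 2 counts in primary NTY, below all 3 primordial NTY libraries, and was called higher in MII in NTY by the edgeR quasi-likelihood test. The call was not made with voom, with any count, with the summed pair of primary NTY libraries, without primary NTY replicate 1 or 3 or without MII NTY replicate 1 or 2. Kif4-ps, Kif16bos and Kifc5c-ps had 0 counts in all microdissected libraries and at most 43, 14 and 14 counts in an MII library.

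Genes that work with kinesins were listed to see whether they followed the same order between stages. Of 13 spindle partners, the edgeR quasi-likelihood test of MII against primary called 3 higher and 0 lower of 13 in sham (Aurka, Birc5 and Cdca8) and 5 higher and 0 lower of 13 in NTY (the same with Aurkc and Hmmr). Over all genes the test called 23% higher and 10.2% lower in sham and 31.1% and 13.5% in NTY, beside which these lists are to be read. The summed level of the partners was 1187 to 1946 TPM in MII libraries and 11.7 to 779.9 TPM in microdissected libraries, with Aurkc leading in MII oocytes, so the ranges did not overlap. Of 15 genes of cytoplasmic dynein and dynactin, the minus-end motor and its activator, the test called 1 higher and 6 lower of 15 in sham and 1 higher and 7 lower of 15 in NTY, the higher ones being Nde1 and Dynlrb1. Their sums ran in the opposite order, with 179 to 372 TPM in MII libraries and 674 to 3385 TPM in microdissected libraries. Kinesin light chains, adaptors and kinesins with other names, 14 genes with values, gave 0 higher and 1 lower of 14 in sham (Mapk8ip1) and 2 higher and 5 lower of 14 in NTY, where Cenpe and Klc3 were higher, and their sums overlapped at 125 to 417 TPM in MII libraries and 141 to 685 TPM in microdissected libraries. Cenpe led this list in MII oocytes. Of 14 proliferation genes the test called 0 higher and 1 lower of 14 in sham (Top2a) and 3 higher and 1 lower of 14 in NTY, where Cdc20, Mki67 and Pcna were higher and Top2a lower. Their sums did not overlap, with 1386 to 2679 TPM in MII libraries and 11.9 to 858 TPM in microdissected libraries. In the other 6 comparisons the test called 0 genes of these 4 lists.

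The marker lists changed between MII and primary follicles too, which bears on how the kinesin results are read. For oocyte markers the edgeR quasi-likelihood test called 6 higher and 0 lower of 14 in sham and 6 higher and 0 lower of 14 in NTY. For granulosa markers it called 2 higher and 7 lower of 13 in sham and 2 higher and 7 lower of 13 in NTY, and for stroma markers 0 higher and 5 lower of 6 and 0 higher and 6 lower of 6. The shares of all genes were 23% higher and 10.2% lower in sham and 31.1% and 13.5% in NTY. Endothelial and blood markers gave 2 higher and 0 lower of 5 and 2 higher and 0 lower of 5, and cumulus markers 0 higher and 1 lower of 1 and 0 higher and 0 lower of 1. Which cells of the microdissected material carried the kinesins that were lower in MII was not tested.

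Many genes of the cell division program carry the letters TTTGAA (the cell cycle homology region) and CCAAT near their start of transcription, so both were looked for, on both strands, in 300-base RefSeq promoter windows of mouse build GRCm38.p6. The windows were matched by gene, which gave 13 spindle and midzone kinesins and 18 kinesins of other roles. TTTGAA was present in 11 of 13 (84.6%) of the former and 3 of 18 (16.7%) of the latter, beside 5466 of 27025 (20.2%) of all genes with a promoter in the table. CCAAT was present in 8 of 13 (61.5%), 7 of 18 (38.9%) and 11096 of 27025 (41.1%). Both were present in 8 of 13 (61.5%), 2 of 18 (11.1%) and 2155 of 27025 (7.97%). A gene counted as matched if any of its windows held the letters. The matching windows of Kif14, Kif2c, Kif27 and Kif1a lay inside the gene as annotated in GENCODE, away from its annotated start. Matches in such windows are included in these counts. The difference was not tested, and a match is a description, not a site or a cause, while no match says only that these letters are not in this window.

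Stretches of 150 bases are shown for 3 kinesins of the roles with the most matches, in lower case with capitals where the motif letters TTTGAA or CCAAT lie, on either strand. Kif11 lies at chr19:37376232-37376381 (plus strand), Kif22 at chr7:127042421-127042570 (minus strand) and Kif18a, without a match, at chr2:109280588-109280737 (plus strand).

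Kif11: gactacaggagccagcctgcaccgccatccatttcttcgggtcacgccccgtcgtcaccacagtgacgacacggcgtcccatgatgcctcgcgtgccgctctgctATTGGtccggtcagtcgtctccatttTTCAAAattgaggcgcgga

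Kif22: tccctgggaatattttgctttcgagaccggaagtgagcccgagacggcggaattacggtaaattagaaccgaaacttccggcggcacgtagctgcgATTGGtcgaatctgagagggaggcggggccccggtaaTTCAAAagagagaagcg

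Kif18a: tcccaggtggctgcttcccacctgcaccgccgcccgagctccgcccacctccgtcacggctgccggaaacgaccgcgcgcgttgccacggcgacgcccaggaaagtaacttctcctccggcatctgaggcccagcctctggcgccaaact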

How the data were processed

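The authors deposited counts for 53715 genes and TPM for 28252, made with Trim Galore 0.4.1, TopHat2 and featureCounts on mm10 per their notes. Counts were joined to members by Ensembl identifier without version. Counts were tested with edgeR 4.0.16 (TMM scaling, filterByExpr, robust quasi-likelihood test, Benjamini-Hochberg adjusted p under 0.05 as a call). The 12 microdissected libraries formed 1 fit, the 6 MII libraries another, and MII with primary the last. Alternatives used limma 3.58.1, DESeq2 1.42.0 without its Cook filter, RLE scaling, other count filters, a replicate block, libraries left out and the summed pair. Members not tested were Kif16bos, Kif19a, Kif27, Kif28, Kif4-ps, Kif5a, Kif6 and Kifc5c-ps in the microdissected fit, Kif16bos, Kif19a, Kif1a, Kif26a, Kif27, Kif3c, Kif4-ps, Kif5a, Kif6, Kif9, Kifc2, Kifc5b and Kifc5c-ps in MII and Kif16bos, Kif19a, Kif27, Kif4-ps, Kif5a, Kif6, Kifc5b and Kifc5c-ps in MII against primary. Code ran in R 4.3.3 and Python 3.11.15 with numpy 2.4.6, pandas 2.3.3, scipy 1.17.1 and matplotlib 3.10.9. The annotation was GENCODE M21, in which 53620 of the counted identifiers were found.

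The members and lists were chosen with earlier results of these data known. Statistics are printed for the 3 members with the lowest unadjusted p in each comparison without calls, and for the 3 largest positive and 3 largest negative log2 fold changes called in each comparison with calls. Calls lost under the replicate block are given in the closing section only. Other members and values were chosen after they were seen, by role, level or lack of overlap. Where a whole group had 0 counts, a bound from a floor of 3 counts per library replaces the fold. The exception is the fitted value of Kif17 without primordial NTY replicate 2 in the closing section. Values per library are TPM unless called counts. The lists named here are spindle partners, dynein and dynactin, kinesin subunits and adaptors, proliferation genes and 5 sets of cell type markers.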

Additional observations from a re-analysis of the deposited data

How the results depend on the processing

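Calls of NTY and of early growth depended on the test. DESeq2 called 3 members for NTY against sham in primordial and 2 in primary follicles, 2 and 5 for primary against primordial in sham and NTY and 5 for the contrast of both NTY effects, where the edgeR quasi-likelihood test called 0, and voom called 1 for NTY in primary follicles. No library left out gave a call in these comparisons or in MII. For MII against primary in sham (7 called) the count was 4 with RLE, 13 with DESeq2, 15 with voom, 0 when genes under 10 counts in any compared library were dropped, 11 with limma on TPM, 11 with only the groups compared and 0 to 5 with a library left out. Over all genes 4915 of 14817 became 5501, 7379 and 8716 with RLE, DESeq2 and voom, 713 of 4831 with the count filter, 6782 of 14248 with limma and 6750 of 13139 with only the groups compared. In NTY (11 called) it was 18 with DESeq2, 1 with that filter, 5 with only the groups compared and 5 to 15 with a library left out. Over all genes 6597 of 14817 became 8694 with DESeq2, 820 of 2437 with the filter and 3954 of 10698 with only the groups compared. The filter of at least 10 counts kept fewer genes and leaving out a library kept fewer samples, and other causes were not tested.

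Replicate numbers as a block gave 4 calls for MII against primary in sham and 6 in NTY (all genes 3273 and 4463 of 14817), which ended the calls of Kif1b, Kif3c and Kif4 in sham and of Kif1a, Kif1bp, Kif5c, Kif13b and Kif16b in NTY. Correlations of same-numbered libraries ran from -0.0623 to 0.0657, and at most 1 library per comparison correlated best with its own number. The log2 fold change of Kif17 for NTY against sham in primordial follicles reversed. It ran from -13.20 without primordial NTY replicate 2 to 1.12 without primordial sham replicate 2 (adjusted p = 0.954 by the edgeR quasi-likelihood test). Kif17 had 0, 5 and 0 counts in primordial NTY, so without replicate 2 that whole group was at 0. The value of -13.20 is therefore set by the fit and is not a measured size. Of the fold change values of named members under alternatives, 338 kept their call and direction, 39 were weaker, 11 stronger and 1 reversed. RLE in place of TMM moved the all-gene median from 0.60 to 1.65 for MII against primary in sham, 1.71 to 1.99 in NTY, -0.10 to 0.19 for NTY in primary follicles, 0.29 to 0.00 for primary against primordial in sham and -0.56 to -0.28 for the difference.

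The number of members at 1 TPM or more in every library moved with the rule. In primordial sham it was 8 by at least 10 counts and 6 to 11 with a library left out, and in primordial NTY 9 and 5 to 13. In primary NTY it was 2 by at least 5 TPM, 13 by at least 10 counts and 6 to 13 with a library left out. It was 18 to 24 in primary sham, 23 to 25 in MII sham and 22 to 24 in MII NTY with a library left out.

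With 3 libraries a group and strong spread in the microdissected set, no call does not mean no difference. Whether replicates are separate animals is not stated, and whether an animal gave libraries of several stages is not stated either. Stage differences towards MII carry library method, cell mixture and depth.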
